A study of Mus musculus with 2 samples.

Results

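RUNX transcription factors and the regulators that act with them in bone-forming cells were followed across 2 Affymetrix mouse arrays of ATDC5, a mouse cell line of teratocarcinoma origin that can enter chondrogenesis. The genes were Runx1, Runx2, Runx3, Cbfb, Sp7, Dlx5, Msx1, Msx2 and Alpl. They were chosen by name, and every probe set carrying one of these symbols alone in the platform annotation was taken. A probe set is a group of short probes read as 1 signal. Those with names ending in _a_at, _s_at or _x_at are of the shared type, which can match more than 1 transcript. This gave 16 probe sets of 45037 on the array and 8 genes of 18193. Runx2 had no probe set named for it alone in the annotation used here, so it has no signal or ratio below, and only its promoter sequence is described. Both groups were serum-starved and were given cycloheximide (CHX), which stops translation, at 10 µg/ml for 30 min. The CHX+Nell-1 cells then had 100 ng/ml of recombinant human Nell-1, a secreted factor that promotes bone formation, for 30 min, and the CHX+PBS cells had PBS for the same 30 min. No array without CHX was used here. Each group is 1 array, so no test was run and no value below carries an error between cultures.

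RUNX proteins bind DNA through a conserved Runt domain, and the partner subunit encoded by Cbfb, which does not touch DNA itself, raises their affinity. Runx2 is required for osteoblast formation and for hypertrophy of cartilage, Runx3 acts with it in chondrocyte maturation, and Runx1 is best known from blood stem cells and is also used by early skeletal progenitors. Sp7 (osterix) acts below Runx2 in the osteoblast lineage, the homeodomain factors Dlx5, Msx1 and Msx2 work around both, and Alpl, the tissue-nonspecific alkaline phosphatase, is a product of cells committed to mineralisation. Blocking translation in both groups is meant to leave only transcript differences that need no newly made protein. In RNA from a whole culture, fewer cells expressing a gene and less RNA per cell cannot be told apart.

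RUNX factors are known to bind their own promoters, and Sp7 belongs to the SP family, several members of which bind GC boxes. Whether Sp7 itself binds the GC boxes shown was not tested. The upstream stretches holding these letters are shown for the members with a RUNX core and for Alpl, the member whose ratio stood farthest from probe sets of like signal. Sequences are RefSeq GRCm38.p6, read 5′ to 3′ on the gene's strand within the 250 bases before the annotated start, with the motif in capitals.
Runx2, chr17:44814682-44814727, minus strand: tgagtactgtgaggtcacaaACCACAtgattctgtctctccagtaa
Runx3, chr4:135120491-135120544, plus strand: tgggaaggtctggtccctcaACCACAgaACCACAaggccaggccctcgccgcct
Alpl, chr4:137796385-137796419, minus strand: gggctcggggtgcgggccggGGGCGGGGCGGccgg
The capitals in Runx2 and Runx3 are the reverse complement of TGTGGT, and those in Alpl are 2 overlapping copies of GGGCGG. The search covered both strands for TGTGGT or TGCGGT as the RUNX core, GGGCGG as the GC box and TAATTG as a homeobox core. In 10 windows of 7 members, 2 windows (20%) held a RUNX core, against 18.6% of 32851 windows of all genes. The GC box was in 5 of the 10 windows (50%), against 32.7% of all. The homeobox core was in 0 of 10 member windows and in 7.17% of all windows. A match is a description of letters, and no binding was measured.

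Across the 16 probe sets, 3 were at least 1.5-fold higher with Nell-1, 2 at least 1.5-fold lower and 11 neither. The submitters state 1.5-fold as their own threshold. All 3 higher probe sets belonged to Runx1, and the 2 lower ones were a dim probe set each of Msx1 and Msx2. Together they are 31.2% of the members' probe sets, while 40.6% of all probe sets on the array passed 1.5-fold, with 17.5% higher and 23.1% lower. Among probe sets at or above the median mean signal of 64.3, 4 of the members' 15 passed, or 26.7%, against 14.5% of 22519. By direction, 3 of these 15 probe sets, all of Runx1, were higher and 1 was lower, or 20% and 6.67%. The shares of all probe sets at or above the median were 5.97% and 8.48%. Probe sets of 1 gene are not independent. Without Runx1, 0 of 10 member probe sets at any signal were higher and 2 were lower, or 20% past 1.5-fold. Taking for each gene the probe set that was brightest over both arrays, 0 of 8 genes passed, against 32.1% of all genes and 12.1% of genes at or above the median signal. By direction the shares of all genes were 13.1% higher and 19.0% lower, and 4.56% and 7.53% at or above the median signal. The median log2 ratio of the 8 genes was 0.12, with 5 above 0 and 3 below, and that of all genes was -0.06.

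**Figure D1:**
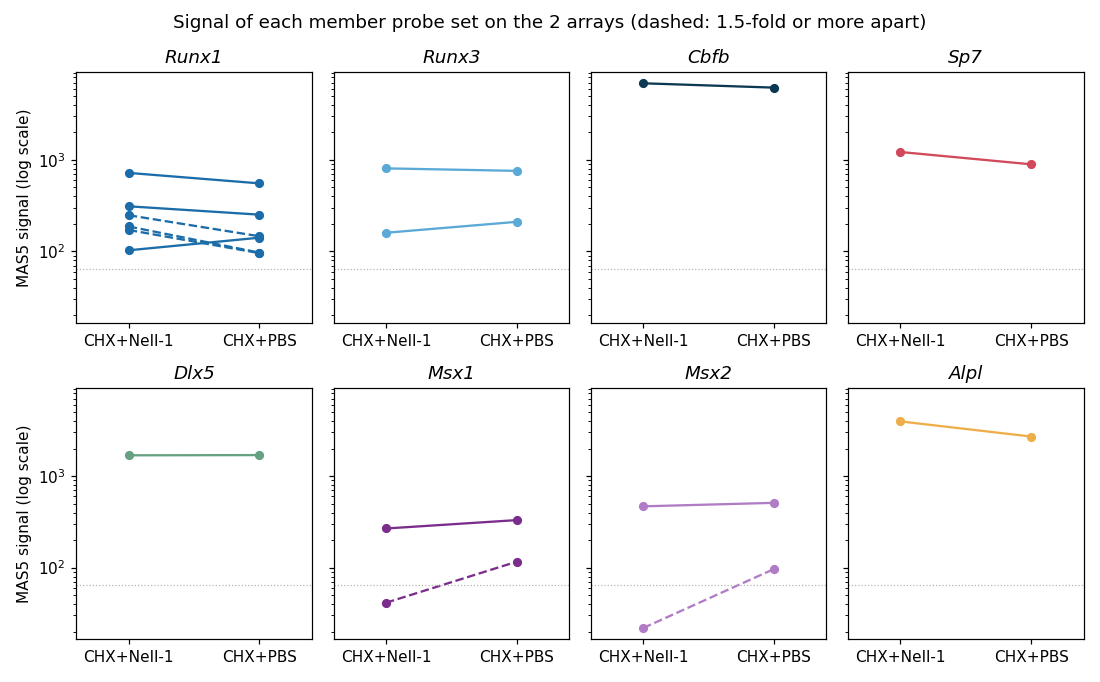
MAS5 signal (log axis) of each member probe set on the CHX+Nell-1 array (left point) and the CHX+PBS array (right point), 1 panel a gene. Dashed lines join the 5 probe sets at least 1.5-fold apart, 3 of Runx1 and 1 each of Msx1 and Msx2, and the dotted line is the median mean signal of 64.3.

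Runx1 had the most probe sets, 6, all at or above the median signal. Its brightest, 1427650_a_at, measured 720 with Nell-1 and 553 with PBS, a log2 ratio of 0.38. The second, 1422864_at, measured 311 with Nell-1 and 252 with PBS, a log2 ratio of 0.30. Neither reached 1.5-fold, and both were on the higher side. The probe set 1440878_at gave 187 with Nell-1 and 96.9 with PBS, 1.93-fold higher. On 1422865_at the signals were 171 with Nell-1 and 95.6 with PBS, 1.79-fold higher. On 1452531_at they were 248 with Nell-1 and 146 with PBS, 1.70-fold higher. The sixth probe set went the other way. It is 1452530_a_at, with 103 with Nell-1 and 141 with PBS, a log2 ratio of -0.46. Thus 5 of 6 probe sets of this gene were above 0, with a median log2 ratio of 0.57 and a mean of 0.46. The 6 read the same RNA of the same 2 cultures and are not replicates of the treatment.

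To place these ratios, all probe sets were divided into 10 equal classes by mean signal, and the spread of log2 ratios in each class was taken as a robust SD from the median absolute deviation. That spread mixes measurement noise with real differences. The 3 higher Runx1 probe sets lay in the class with mean signals from 121 to 281, where the robust SD was 0.43 and 19.5% of 4503 probe sets passed 1.5-fold. The higher ones were 7.82% of the 4503. The ratio of 1440878_at was 2.20 times that spread, the largest multiple among the Runx1 probe sets. The ratios of 1422865_at and 1452531_at were 1.94 and 1.77 times it. The probe set in the opposite direction was at 1.06 times the spread.

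Probe sets made from the same source sequence gave unequal Runx1 ratios. The platform annotation gives 1 source record to 1452531_at and 1452530_a_at, whose log2 ratios were 0.76 and -0.46, a gap of 1.22. Another record is shared by 1422864_at and 1422865_at, at 0.30 and 0.84, a gap of 0.54. Across 1976 such pairs at or above the median signal the median gap was 0.20, the upper quartile 0.40 and the 90th percentile 0.69, and 69.8% of pairs had the same sign. The range over the 6 Runx1 probe sets was 1.41 on the log2 scale. In the 73 genes with 6 probe sets at or above the median signal the median range was 0.74, with an upper quartile of 0.99, and in 16.4% all 6 had the same sign. Neither the 1976 pairs nor these genes were matched to Runx1 on signal. Both Runx1 pairs lay in the class with a robust SD of 0.43, against 0.21 in the brightest class. No part of these data assigns a Runx1 probe set to a transcript form.

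Runx3, the chondrocyte and T-cell member of the family, differed little. Its brighter probe set, 1440275_at, measured 807 with Nell-1 and 758 with PBS, a log2 ratio of 0.09. The other, 1421467_at, measured 160 with Nell-1 and 210 with PBS, a log2 ratio of -0.40. They had opposite signs, and both ratios were smaller than 1 robust SD of their class (0.28 and 0.43). Cbfb, encoding the shared partner subunit, was read by 1 bright probe set, 1460716_a_at, at 6864 with Nell-1 and 6154 with PBS. Its log2 ratio of 0.16 was also within 1 robust SD of 0.21. For Runx1, Runx3 and Cbfb together, 7 of 9 probe sets were above 0, with a median of 0.30. Of the 7, 5 were those of Runx1.

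**Figure D2:**
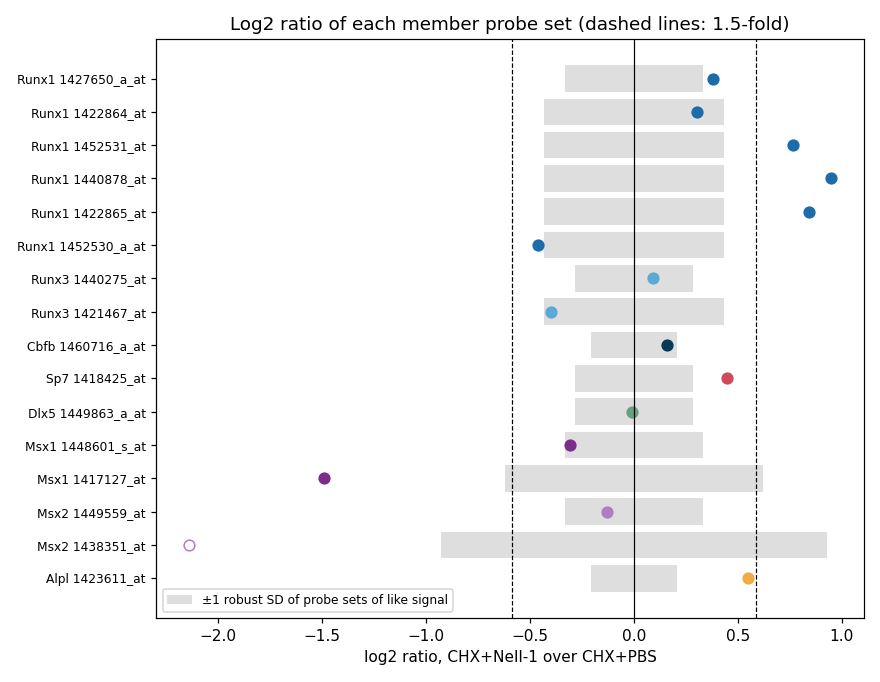
Log2 ratio of CHX+Nell-1 over CHX+PBS for each of the 16 probe sets, with a grey bar of 1 robust SD either side of 0 for probe sets of like mean signal and dashed lines at 1.5-fold. The open point is the 1 probe set below the median signal (Msx2), and 9 of 16 points lie outside their bars.

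Alpl and Sp7, the enzyme and the zinc-finger factor of the osteoblast programme, were both on the higher side and both under 1.5-fold. Alpl had 1 probe set, 1423611_at, with 3959 with Nell-1 and 2706 with PBS, 1.46-fold higher (log2 ratio 0.55). It lay in the brightest class, where the robust SD was 0.21 and 2.11% of 4504 probe sets passed 1.5-fold. The Alpl ratio was 2.64 times that spread, the largest multiple among the 16, and 97.0% of the class had a smaller absolute ratio. Sp7 had 1 probe set, 1418425_at, with 1219 with Nell-1 and 894 with PBS, 1.36-fold higher (log2 ratio 0.45). In its class the robust SD was 0.28, 5.0% of probe sets passed 1.5-fold and 87.6% had a smaller absolute ratio. Centring each array on its median signal, which moves every log2 ratio up by 0.15 and puts the median of all genes at 0.09, placed Alpl at 0.70 and Sp7 at 0.60, both past 1.5-fold. With loess or quantile scaling they were under it, at 0.54 and 0.52 for Alpl and at 0.44 for Sp7 in both.

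**Figure D3:**
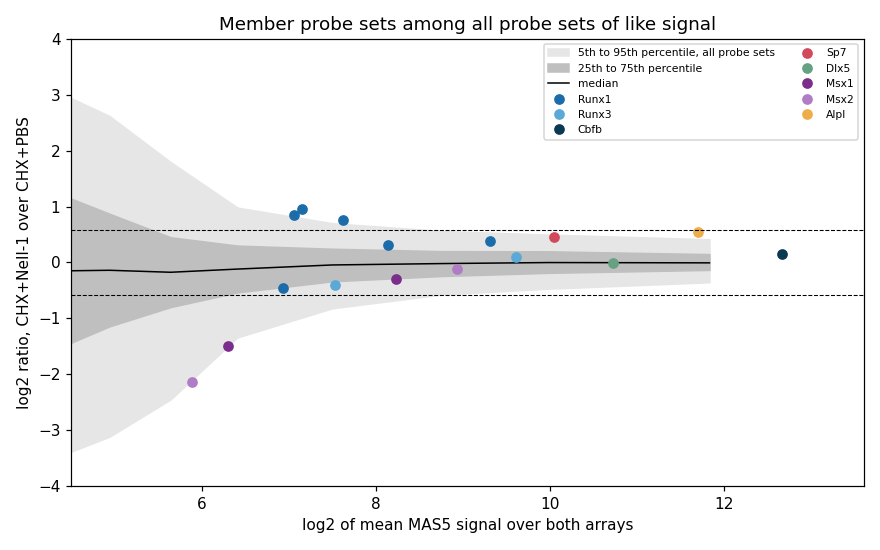
Log2 ratio of the 16 member probe sets against log2 mean signal, over the 5th to 95th and 25th to 75th percentile bands and the median of all 45037 probe sets in 10 classes of signal, drawn at each class's median signal. Alpl, at 0.55, and the 3 Runx1 probe sets past 1.5-fold lie above the wider band. The 2 low points at the left are the dim probe sets of Msx1 and Msx2, near the lower edge of that band.

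The homeodomain members were on the lower side or near 0. Dlx5, an activator of osteoblast genes, measured 1687 with Nell-1 and 1697 with PBS on 1449863_a_at, a log2 ratio of -0.01, the smallest in size of the 16. Msx1, a repressor of differentiation in skeletal progenitors, measured 268 with Nell-1 and 331 with PBS on its brighter probe set, 1448601_s_at, a log2 ratio of -0.30. Its other probe set, 1417127_at, measured 41.3 with Nell-1 and 116 with PBS, 2.81-fold lower. Msx2, its close relative, measured 467 with Nell-1 and 510 with PBS on the brighter 1449559_at, a log2 ratio of -0.13. On the dimmer 1438351_at it measured 21.9 with Nell-1 and 96.5 with PBS, 4.41-fold lower. All 5 homeobox probe sets were below 0 with signals as deposited, and after median centring Dlx5 was at 0.14 and the brighter Msx2 probe set at 0.02.

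In both Msx genes the dim probe set passed 1.5-fold and the bright one did not. The bright Msx1 probe set is of the shared type and the dim one is not. The bright ones lay within 1 robust SD of 0.33. The dim Msx1 probe set lay in a class where the robust SD was 0.62 and 36.3% of probe sets passed 1.5-fold. That of Msx2, below the median signal, lay where the robust SD was 0.93 and 53.8% passed. Their ratios were 2.40 and 2.31 times the spread of their classes, and 94.7% and 90.1% of probe sets there had smaller absolute ratios. Both Msx1 probe sets come from 1 source record, and their gap of 1.19 compares with the median of 0.20 for such pairs. Over genes with 2 probe sets at or above the median signal, numbering 3109, the median gap was 0.23. Neither the pairs nor these genes were matched to Msx1 on signal. The robust SD of 0.62 in the class of its dim probe set compares with 0.21 in the brightest class.

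Of 37 cofactors, modifiers and antagonists of RUNX proteins measured, 1 was higher, 1 lower and 35 neither. At or above the median signal 1 of 36 passed 1.5-fold, or 2.78%, against 12.1% of all genes there. The list's median log2 ratio was -0.13 against -0.06 for all genes. The lower one was Cbfa2t3, a corepressor of the family fused to RUNX1 in leukaemia, at 93.3 with Nell-1 and 201 with PBS. The higher one was Hey1, a Notch-pathway repressor named after its values were seen and below the median signal, at 47.0 with Nell-1 and 12.2 with PBS. The brightest members were the ubiquitin ligases Nedd4, at 9359 with Nell-1 and 7724 with PBS, and Stub1, at 9300 with Nell-1 and 9364 with PBS. The 5 Groucho-family genes Tle1 to Tle5, singled out after their values were seen, all lay below 0, between -0.44 and -0.24, and 0 of the 5 reached 1.5-fold. Twist1, which blocks Runx2 activity and was also singled out afterwards, was at -0.55, with 1889 with Nell-1 and 2775 with PBS.

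Genes described as Runx2 targets in bone and hypertrophic cartilage were 2 higher, 5 lower and 14 neither of 21, with a median of -0.15. Bglap, Bglap2, Bglap3 and Spp1 were listed but had no probe set named for them alone, so they are not among the 21. The 33.3% that passed is near the 32.1% of all genes. All 5 lower genes, which were Col10a1, Mmp13, Ihh, Dmp1 and Mepe, were below the median signal, and they were named after their values were seen. Mmp13, the collagenase of hypertrophic cartilage, was at 1.34 with Nell-1 and 15.9 with PBS, where ratios are unstable. Of the 12 targets at or above the median signal, 1 was higher and 0 were lower. It was Cdkn1a, a cell-cycle inhibitor, at 770 with Nell-1 and 408 with PBS on its brightest probe set, while its other probe set was at 0.01. The fibrillar collagen genes Col1a1, at 18359 with Nell-1 and 21720 with PBS, and Col1a2, at 35363 with Nell-1 and 38979 with PBS, were at -0.24 and -0.14. The other higher gene, Tnfsf11, also named after its values were seen and below the median signal, was at 5.20 with Nell-1 and 3.42 with PBS.

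**Figure D4:**
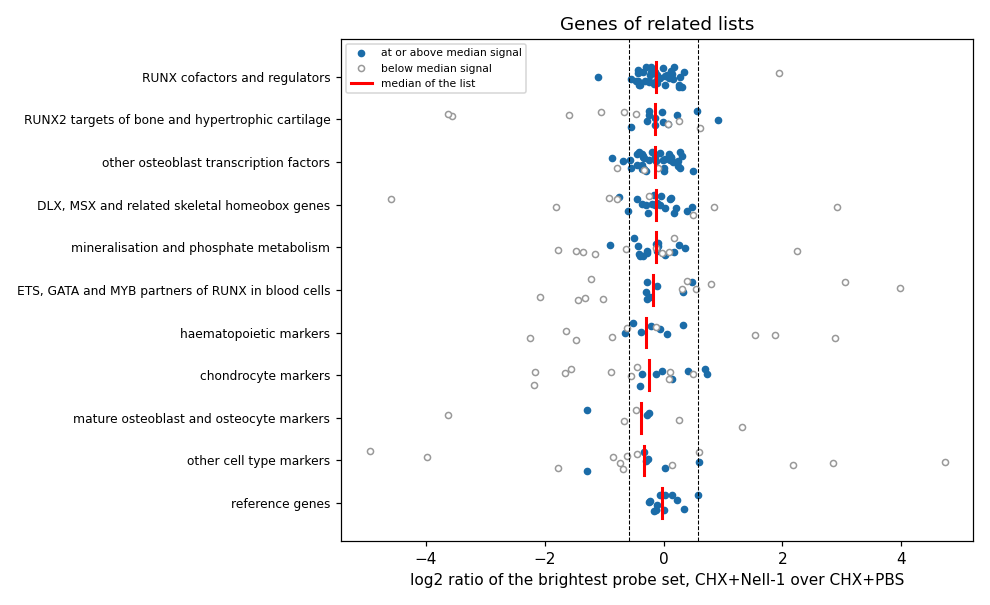
Log2 ratio of CHX+Nell-1 over CHX+PBS for each gene of 11 related lists, by its brightest probe set, with filled points at or above the median signal, open points below it, red bars at list medians and dashed lines at 1.5-fold. Most filled points lie between the dashed lines (Omd at -1.29 is an exception), and open points spread from -4.95 to 4.73.

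Other osteoblast transcription factors gave 0 higher, 3 lower and 36 neither of 39, with a median of -0.15. The list also held the coactivator gene Ctnnb1 and the receptor gene Ptch1, at 0.24 and named here for that reason. At or above the median signal 2 of 36 passed, or 5.56%, against 12.1% of all genes. The lower ones at or above the median signal were Mef2c, at 55.5 with Nell-1 and 101 with PBS, and Sox11, at 67.1 with Nell-1 and 107 with PBS. Both had mean signals near the median of 64.3, at 78.2 and 87.2. The brightest were Ctnnb1, encoding beta-catenin, at 17298 with Nell-1 and 15882 with PBS, and Sox4, at 13305 with Nell-1 and 13317 with PBS. Their further probe sets at or above the median signal disagreed. The 2 of Ctnnb1 were at -0.59, past 1.5-fold, and 0.13, and the 5 of Sox4 ran from -0.72 to 0.10. The list around Dlx5 and the Msx genes gave 2 higher, 6 lower and 20 neither of 28, with a median of -0.13. Besides homeobox genes it held the growth factor genes Bmp2 and Bmp4, named here for that reason. Bmp2, among the lower ones, was at 0.90 with Nell-1 and 1.70 with PBS, near the floor. Bmp4, one of the 2 brightest of the list, was at 8154 with Nell-1 and 7494 with PBS. At or above the median signal 2 of 20 passed, close to the 12.1% of all genes. Prrx2, a mesenchymal homeobox gene, was 1.52-fold lower at 4052 with Nell-1 and 6155 with PBS, and Six2 was 1.68-fold lower at 246 with Nell-1 and 415 with PBS. Prrx1, the paralogue of Prrx2, was at -0.19, with 7580 with Nell-1 and 8659 with PBS. The 5 other Dlx genes, taken as a family after their values were seen, were on both sides of 0, with Dlx1 at 0.40, Dlx2 at -0.15, Dlx3 at -0.26, Dlx4 at -0.30 and Dlx6, the genomic neighbour of Dlx5, at -0.11.

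Around Alpl, genes of mineralisation, phosphate handling and the glycolipid anchor that holds the enzyme gave 1 higher, 6 lower and 20 neither of 27, with a median of -0.13. The share past 1.5-fold was 25.9%, against 32.1% of all genes. The lower one at or above the median signal was Mgp, matrix Gla protein, an inhibitor of mineralisation. It measured 2254 with Nell-1 and 4224 with PBS, a log2 ratio of -0.91 against a robust SD of 0.21. The brightest were Sparc, encoding osteonectin, at -0.13, and Anxa2 at -0.09. The related phosphatase genes Alpi, at 13.0 with Nell-1 and 33.2 with PBS, Alppl2, at 6.40 with Nell-1 and 17.7 with PBS, and Akp3, at 55.9 with Nell-1 and 61.0 with PBS, were below the median signal. They were named after their values were seen.

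Markers of other cell types were examined because Runx1 and Runx3 also serve blood cells. Of 16 haematopoietic markers 3 were higher and 6 lower, or 56.25% past 1.5-fold, against 32.1% of all genes. The list's median was -0.29, and 9 were below the median signal. Of those 9, 8 passed 1.5-fold, 3 higher and 5 lower, in a range of signal where 66.7% of all probe sets passed. The summed signal of all 16 was 2128 with Nell-1 and 2457 with PBS. The brightest were Cd34, which mesenchymal cells also use, at 1052 with Nell-1 and 1091 with PBS, and Cd14, at 288 with Nell-1 and 334 with PBS. Cd8a, the lower marker at or above the median signal, was at 145 with Nell-1 and 227 with PBS on a probe set of the shared type. Its 4 further probe sets were all below the median signal. Of the 16 markers, 5 were under 20 on both arrays. Of 18 ETS, GATA and MYB partners of RUNX in blood, 3 were higher and 5 lower, all 8 among the 11 below the median signal. These 8 are 72.7% of the 11, against the 66.7% of all probe sets in that range of signal. The brightest of that list, Ets1 and Ets2, were at 0.33 and -0.11. The part of haematopoietic cells in the Runx1 values was not tested.

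Skeletal markers lay on both sides of the median signal. Of 18 chondrocyte markers 8 were at or above the median signal, and their list gave 2 higher, 5 lower and a median of -0.24. The share past 1.5-fold was 38.9%, against 32.1% of all genes. At or above the median signal 2 of 8 passed, both higher, or 25% against 12.1% of all genes there, and the median was 0.05. The higher ones were Acan, at 293 with Nell-1 and 176 with PBS, and Sox6, at 338 with Nell-1 and 208 with PBS. The brightest were Sox9, at 2577 with Nell-1 and 3375 with PBS, and Col2a1, at 1206 with Nell-1 and 909 with PBS. Of the 10 below the median signal, 0 were higher and 5 lower, in a range of signal where 66.7% of all probe sets passed. Of the 18, 4 were under 20 on both arrays. Of 8 mature osteoblast and osteocyte markers 1 was higher, 3 lower and 4 neither, and 3 were at or above the median signal. The share past 1.5-fold was 50%, against 32.1% of all genes. Of the 5 below the median signal 60% passed, where 66.7% of all probe sets did. Bglap and Bglap2 were listed but had no probe set named for them alone, so they are not among the 8. The 2 under 20 on both arrays, named after their values were seen, were Sost, at 4.79 with Nell-1 and 4.02 with PBS, and Mepe, at 5.61 with Nell-1 and 8.89 with PBS. The higher one, Ifitm5, below the median signal and likewise named afterwards, was at 46.4 with Nell-1 and 18.6 with PBS, and Omd, encoding osteomodulin, was 2.45-fold lower, at 911 with Nell-1 and 2231 with PBS. Of 19 markers of endothelial, epithelial, fat, muscle and neural cells, 5 were higher and 8 lower, and 13 were below the median signal. The share past 1.5-fold was 68.4%, against 32.1% of all genes. Of the 13 below the median signal 84.6% passed, where 66.7% of all probe sets did. The summed signal of all 19 was 2281 with Nell-1 and 2408 with PBS. Among the 6 at or above the median signal, Tubb3 was higher, at 685 with Nell-1 and 454 with PBS, Des was lower, at 91.7 with Nell-1 and 224 with PBS, and Pparg, one of the 2 brightest, was at 608 with Nell-1 and 598 with PBS.

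Signals of added control RNAs differed between the arrays. The 24 poly-A spike-in probe sets, for RNAs added before labelling, were all lower on the Nell-1 array, with a median log2 ratio of -0.49, and the 18 hybridisation spike-ins had a median of -0.18. None of 12 reference genes passed 1.5-fold, and their median was -0.03, with the brightest, Actb and Rpl13a, at -0.07 and -0.16. They ran from -0.24 for Tbp to 0.58 for Tfrc, both named after their values were seen. Tfrc, at 2478 with Nell-1 and 1657 with PBS, was just under 1.5-fold, and its ratio was larger than the 0.55 of Alpl. The 6 control probe sets along Actb and Gapdh, from both ends and the middle of each transcript, lay between -0.15 and -0.10. The part of the spike-in difference in the members' ratios was not tested.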

How the data were processed

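The data are 1 array for each of 2 groups. The deposited values are intensities, linear MAS5 signals per probe set. Expression Console and MAS5 are named per the submitters' processing notes, with versions not given in the sources used here. The 2% trimmed mean was 500.0 on both arrays, and no further scaling was applied. Of 45101 probe sets, 64 controls were set apart. Of the other 45037, the annotation gave 1 symbol to 34945, several to 932 and none to 9160, and no gene was named from the last 2 classes. Computation used Python 3.11.15 with pandas 2.3.3, numpy 2.4.6 and statsmodels 0.14.6, and the code was tested on simulated data.

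Log2 ratios put the Nell-1 array over the PBS array, with no added constant. With 1 array per group there is no test, and the number of arrays limits the precision. A gene in a list stands by its brightest probe set over both arrays. The members and the 11 lists (264 symbols, 237 genes measured) were chosen with earlier results of these data known. From each list the 2 brightest genes and up to 4 genes past 1.5-fold, the largest ratios at or above the median signal, were eligible for naming. Others are marked where they occur. Detection calls were not used here. Alternatives were median centring, loess, quantile scaling, an added or floor value of 17.9, a 2-fold threshold, a signal filter, means over probe sets, and leaving out probe sets of shared type.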

Additional observations from a re-analysis of the deposited data

How the results depend on the processing

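For the 16 probe sets, none of the 5 called ratios turned direction under 5 alternative scalings or low-signal treatments, and each ratio moved by less than 1 robust SD of its class in 80 of 80 comparisons. With array medians aligned, 5 member probe sets and 2 genes were higher, against 3 and 0 as deposited. With a 2-fold threshold 0 probe sets were higher, and at or above the median signal 1 was lower. By means over probe sets 2 genes were lower (Msx1 and Msx2), and without shared probe sets 1 (Msx1), when Cbfb and Dlx5 had no probe set left. Over all probe sets, the counts of 7896 higher and 10386 lower became 4730 and 6162 with 17.9 added, 4519 and 6121 with 17.9 as a floor, 5142 and 6790 at 2-fold, and 1344 and 1910 at or above the median signal. They became 9779 higher and 8788 lower with array medians aligned. The medians of the first 6 lists in the plot of related lists lay between -0.02 and 0.02 after that alignment. It moved every ratio equally and put the median of all genes at 0.09, so these lists stayed below all genes. List medians moved by more than 0.21, the robust SD of the brightest class, in few cases. Haematopoietic markers were at -0.071 with the floor, against -0.29. Chondrocyte markers were at 0.051 at or above the median signal, against -0.24. Mature osteoblast markers were at -0.91 by means over probe sets, against -0.38. Other cell types were at -0.62 by means and -0.69 without shared probe sets, against -0.33. Beyond what fewer genes or a changed threshold give by construction, the cause was not tested. Each group is 1 array, so no replicate could be left out. No paired analysis was possible because each group is a single array.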
